A study of Homo sapiens with 6 samples.

Results

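The metallothionein genes and MTF1 were examined in MCF10A cells, an immortal human line of breast epithelium, after depletion of PAX9. There were 9 members, MT1A, MT1E, MT1F, MT1G, MT1H, MT1M, MT1X, MT2A and MTF1, and each was found by its exact symbol in 1 row of a table with 26822 gene symbols. The study compared a non-targeting siRNA (siNT, 3 samples) with siRNAs targeting PAX9 (siPAX9, 3 samples), each at 30 nM for 72 hours. PAX9 is a transcription factor of RNA polymerase II. Cells of both groups were grown in medium containing horse serum, epidermal growth factor, hydrocortisone, cholera toxin and insulin. Poly(A)+ RNA was sequenced, and levels are in FPKM (sequenced fragments relative to transcript length in kilobases and to library size). The header of the deposited table does not name the unit, which was taken from the output of Cufflinks, the authors' quantification tool. The table has 1 value per gene and group, combined over 3 samples. There is therefore no value per sample, no error between replicates that could be computed, and no test is given here for any difference. A gene was called lower or higher when its 2 FPKM values were both above 0, the higher one was at least 1 and they differed at least 2-fold.

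Metallothioneins are very small proteins of the cytoplasm that hold zinc, copper and cadmium through clusters of cysteines. They buffer free zinc, protect the cell from toxic metals and take part in defence against oxidants. In humans, the MT1 genes and MT2A lie side by side on chromosome 16. MTF1 is the zinc-sensing transcription factor that binds metal response elements in their promoters and raises their transcription when zinc or cadmium is high. Glucocorticoids and cytokines that act through STAT3 are also known inducers of MT2A and other metallothioneins, and hydrocortisone was in the medium of both groups.

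All 8 metallothionein members lie in a cluster of 15 metallothionein rows that spans 119148 bases of chromosome 16, while MTF1 lies on chromosome 1 (38275239 to 38325292). The annotated 3-exon transcripts of the 8 metallothioneins each have 20 cysteine codons, among 61 codons (62 in MT1G). Between pairs of the 7 members with 186 coding bases, the coding sequences were 88.7% identical (MT1F and MT1X) to 94.6% identical (MT1A and MT1E). RefSeq promoter sequences were available for 4 of the 9 members, MT2A, MT1X, MT1H and MTF1. The promoters of 3 of them are shown because MT2A and MT1X were abundant and lower in siPAX9, whereas MT1H was listed at 0 in both groups. Each is the 250 bases before the start, 5′ to 3′, and matches chromosome 16 of hg19 exactly, on the plus strand. Capitals mark the core of the metal response element, searched as TGCACNC or TGCGCNC on both strands.
MT2A (chr16:56642246-56642495): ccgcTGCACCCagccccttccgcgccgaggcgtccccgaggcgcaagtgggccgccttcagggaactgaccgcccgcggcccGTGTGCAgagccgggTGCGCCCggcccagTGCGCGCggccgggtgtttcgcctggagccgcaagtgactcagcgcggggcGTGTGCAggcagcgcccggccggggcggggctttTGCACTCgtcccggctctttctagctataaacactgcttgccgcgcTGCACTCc
MT1X (chr16:56716132-56716381): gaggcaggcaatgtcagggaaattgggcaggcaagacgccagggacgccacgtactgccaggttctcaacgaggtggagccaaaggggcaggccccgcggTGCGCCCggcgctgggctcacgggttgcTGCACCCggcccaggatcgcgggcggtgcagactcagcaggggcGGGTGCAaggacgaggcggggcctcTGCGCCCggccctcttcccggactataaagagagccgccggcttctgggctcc
MT1H (chr16:56703476-56703725): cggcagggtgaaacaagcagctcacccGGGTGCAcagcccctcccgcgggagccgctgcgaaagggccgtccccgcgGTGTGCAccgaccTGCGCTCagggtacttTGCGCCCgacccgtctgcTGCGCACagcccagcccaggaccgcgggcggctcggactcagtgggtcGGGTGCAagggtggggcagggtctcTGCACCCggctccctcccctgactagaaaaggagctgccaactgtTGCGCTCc

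In the whole window of 300 bases, which adds 50 bases after the start, MT2A had 8 cores, 1 of them after the start. MT1H also had 8 cores, MT1X had 4 and MTF1 had none. Of all 35116 RefSeq promoters, 29.6% held at least 1 core, 0.601% held 4 or more, and 7 promoters (0.0199%) held 8 or more. No core overlapped another core in these promoters, nor a match to either of the other motifs searched. The TATA box (TATAAA, in 11.5% of all promoters) was matched once in MT2A and once in MT1X. The core of the antioxidant response element (TGACNNNGC, in 13.3% of all promoters) was also matched once in each of these 2 promoters. MT1H held neither. Among related genes, MT1B and MT4 had 3 metal response element cores each. SLC30A1, a zinc exporter known as a target of MTF1, had 2 cores, 1 of them after the start. These counts describe letters in a window and do not show binding.

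**Figure D1:**
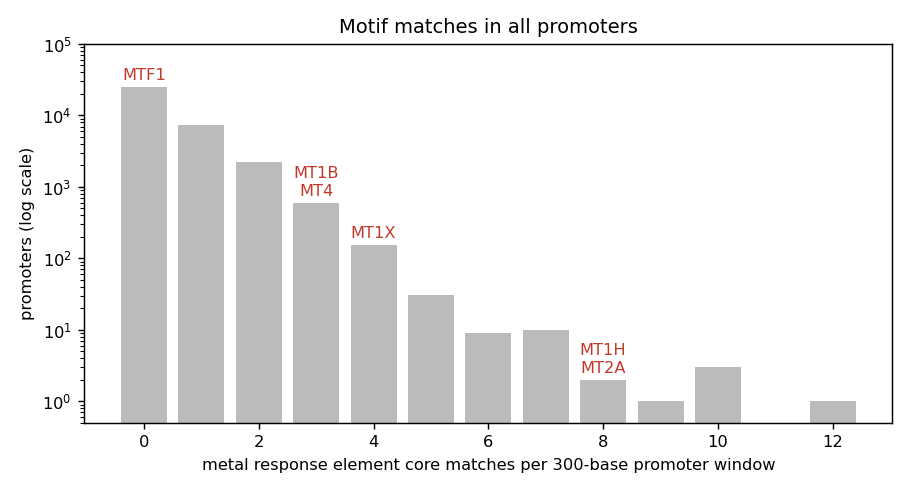
Number of metal response element core matches (x axis, count per 300-base window) against the number of RefSeq promoters with that count (y axis, log scale), with metallothionein genes and MTF1 written above their bar. MT2A and MT1H, with 8 matches each, are the 2 promoters with that count, 5 promoters have more, and MTF1 has 0.

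In MCF10A cells, 4 of the 8 metallothionein members were expressed at 1 FPKM or more, and these 4 were lower after PAX9 depletion. MT2A is the major human metallothionein isoform. The level of MT2A was 16426 FPKM in siNT and 3901 FPKM in siPAX9, a log2 change of -2.07. Thus 23.8% of the control level was left, and the rank of MT2A among all symbols went from 2 in siNT to 9 in siPAX9.

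MT1E, an MT1 isoform, was the next most abundant. Its level was 3361 FPKM in siNT and 488 FPKM in siPAX9, which was 6.88-fold lower (log2 change -2.78). It was the member with the largest change, and 62 of the 13492 symbols above the minimum level (0.46%) had a log2 change as low or lower. MT1X, another MT1 isoform, was at 2244 FPKM in siNT and 534 FPKM in siPAX9, 4.20-fold lower (log2 change -2.07). MT1F was far less abundant, at 12.4 FPKM in siNT and 4.14 FPKM in siPAX9, with a log2 change of -1.58.

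MTF1, the factor that acts on these genes, differed in the other direction and by less. Its level was 5.92 FPKM in siNT and 8.36 FPKM in siPAX9, 1.41-fold higher, which was below 2-fold. The 4 remaining members were at or near 0. MT1A, MT1H and MT1M were listed at 0 in both groups, and MT1G was listed at 0 in siNT and at 0.0894 FPKM in siPAX9. A 0 in such a table can also be an estimate that failed, so no change is given for these genes.

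Of the 5 members above the minimum level, 4 were at least 2-fold lower and 0 were at least 2-fold higher in siPAX9. The members' median log2 change was -2.07. Among all 13492 symbols above the minimum, 6.89% were at least 2-fold lower and 7.26% were at least 2-fold higher, and the median log2 change was -0.07. The members were chosen with these values known, so the count is a description.

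**Figure D2:**
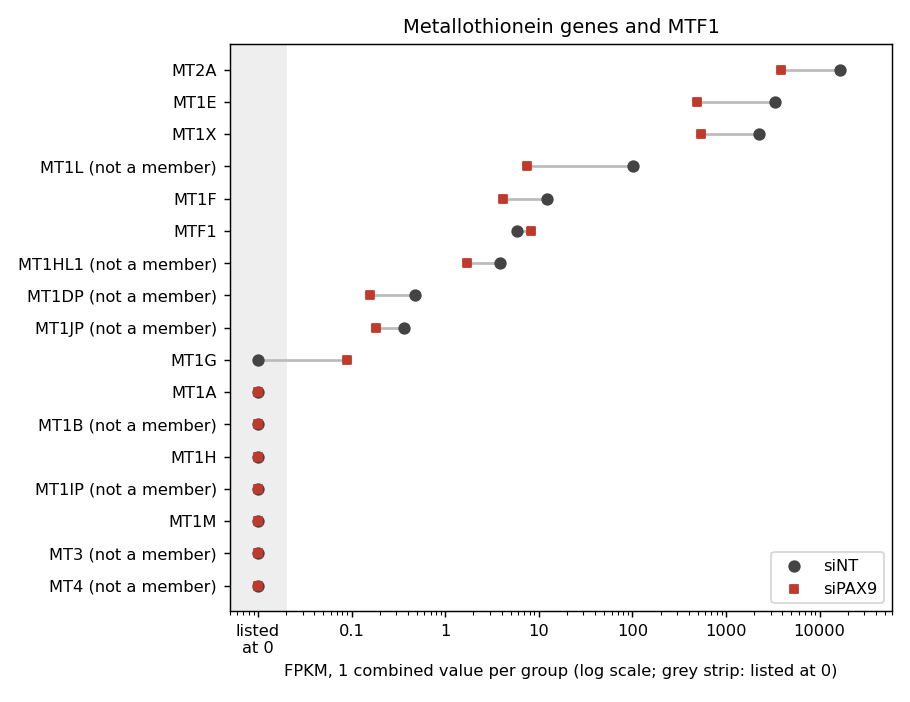
FPKM (x axis, log scale) in siNT (circles) and siPAX9 (squares) for the 9 members and for the other metallothionein symbols with a row, with genes listed at 0 drawn in the grey strip. In each metallothionein above 0 in both groups the square lies left of the circle, whereas in MTF1 it lies to the right.

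The expressed isoforms did not all change by the same factor. MT2A was 7.32 times as high as MT1X in siNT and 7.30 times as high in siPAX9, so the proportion of these isoforms was nearly equal in the 2 groups. MT1E was 1.498 times as high as MT1X in siNT and 0.914 times as high in siPAX9. The order of MT1E and MT1X was therefore different in the 2 groups. Without values per sample, it was not tested whether this shift exceeds the spread between samples.

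Summed over the 8 metallothionein members, the level was 22043 FPKM in siNT and 4928 FPKM in siPAX9, 4.47-fold lower. MT2A made up 74.5% of this sum in siNT and 79.2% in siPAX9. MT1E made up 15.2% in siNT and 9.91% in siPAX9, and MT1X made up 10.2% and 10.8%. The members held 3.85% of the FPKM summed over all named rows in siNT and 1.04% in siPAX9. In bulk RNA, fewer cells that express a gene and less RNA per cell cannot be told apart.

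There were 64 symbols with a mean of at least 1000 FPKM over the 2 groups, and 7 of them were at least 2-fold lower in siPAX9. Of these 64, 3 were at least 4-fold lower, and they were MT2A, MT1E and MT1X. Among all symbols above the minimum level, 6.89% were at least 2-fold lower and 1.37% at least 4-fold lower. MT1E and MT1X were above 1000 FPKM in siNT only, so they entered the 64 through the group where they were high, and the count is a description. MT2A and MT1X lay close to that limit. With the median log2 change of the 12557 symbols at 1 FPKM or more in both groups (-0.08) subtracted, they stood at -1.99, just short of 4-fold. The median log2 change of the 64 symbols was -0.52, compared with -0.07 for all symbols above the minimum.

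**Figure D3:**
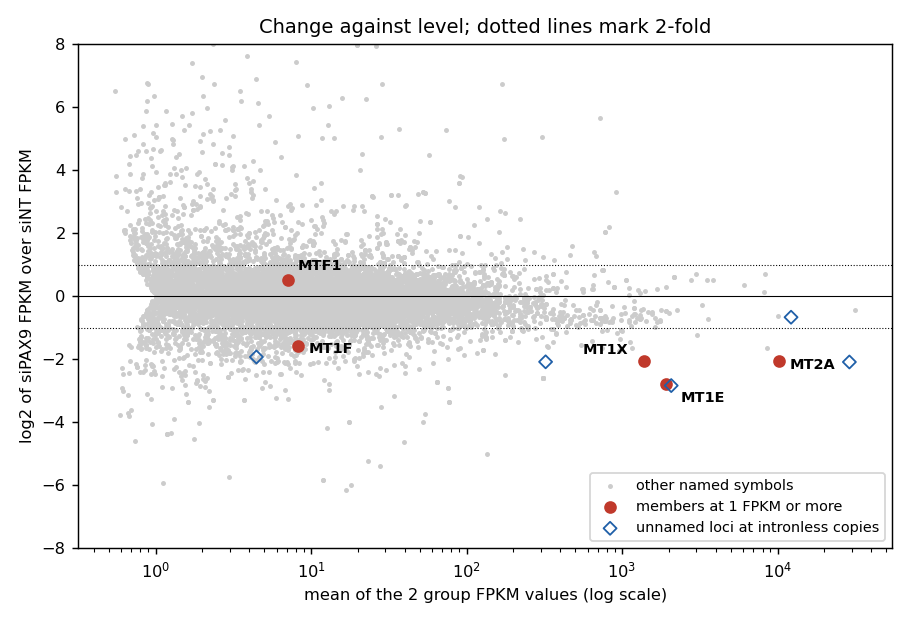
Log2 of siPAX9 FPKM over siNT FPKM (y axis) against the mean FPKM of the 2 groups (x axis, log scale) for named symbols above the minimum level (grey), members (red) and unnamed loci at intronless metallothionein copies (open diamonds). MT2A, MT1E and MT1X lie below the other abundant symbols, and 10 symbols with a log2 change beyond 8 in either direction are outside the plot.

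By the position in both groups on the log2 FPKM scale, the symbols nearest to MT2A were MIR1244-4, MIR622, S100A9, S100A8 and RNR2, at distances of 0.35 to 1.95 over the 2 group values. MIR1244-4, a microRNA symbol, was the nearest, with 12973 FPKM in siNT and 4152 FPKM in siPAX9 (log2 change -1.64). S100A9 and S100A8, calcium- and zinc-binding proteins of epithelium and myeloid cells, had log2 changes of 0.14 and 0.36. Of the 5, only MIR1244-4 was also at least 2-fold lower.

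Of 13 further symbols of the family that were looked for, 8 had a row. Of these, 2 were above the minimum level, MT1L and MT1HL1, and both were at least 2-fold lower, beside 6.89% of all symbols. MT1L, which is annotated among the MT1 genes of the cluster, was at 101 FPKM in siNT and 7.51 FPKM in siPAX9, 13.4-fold lower (log2 change -3.74). The sequence of MT1L was not compared with those of the members, and how many of its reads came from another family gene was not tested. MT1HL1, an intronless MT1H-like gene on chromosome 1, was at 3.87 FPKM in siNT and 1.71 FPKM in siPAX9 (log2 change -1.18). MT1DP and MT1JP, pseudogenes in the cluster, were below 1 FPKM in both groups and were not called. MT1B, MT1IP, MT3 and MT4 were listed at 0 in both groups. MT3 is known mainly from brain and MT4 from stratified squamous epithelium.

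The transcripts of these genes resemble intronless copies elsewhere in the genome. Bowtie 2, the authors' aligner, does not split a read over an intron, and the metallothionein exons are short. Of all 76-base windows in the MT2A transcript (76 bases being the read length), 43.3% cross an exon junction. This share was 42.9% in MT1X, 40.3% in MT1F and 22.4% in the 3-exon transcript of MT1E, which has a longer first exon. Of the junction windows of MT2A, 92.9% had 3 or fewer mismatches to an intronless copy outside chromosome 16. For MT1E this share was 68.8%, for MT1X 43.3% and for MT1F 26.2%. Between the genes themselves, 97.3% of the 2935 windows of the 8 members were found exactly in no other gene of the family. This share was 89.4% in MT1H, 93.6% in MT1X and 100% in MT2A. Windows with a few mismatches to another family gene were not counted, so these shares cannot be set beside those for the copies.

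The resemblance is shown by the coding sequences of MT2A and MT1X beside the stretch of their closest copies, which are annotated as the pseudogenes MT2P1 on chromosome 4 (plus strand) and MT1XP1 on chromosome 1 (minus strand) and were read from GRCh37. Capitals mark the bases that differ within a pair.
MT2A coding (exons within chr16:56642568-56643266): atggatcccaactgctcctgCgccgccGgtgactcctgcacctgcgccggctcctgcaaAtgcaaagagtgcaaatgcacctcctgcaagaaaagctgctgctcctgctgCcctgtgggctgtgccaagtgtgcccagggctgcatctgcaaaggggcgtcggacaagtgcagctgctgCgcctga
MT2P1 (chr4:69242041-69242226): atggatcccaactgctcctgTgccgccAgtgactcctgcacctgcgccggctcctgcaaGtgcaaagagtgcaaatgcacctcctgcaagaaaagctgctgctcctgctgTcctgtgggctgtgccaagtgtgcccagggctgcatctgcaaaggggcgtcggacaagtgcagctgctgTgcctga
MT1X coding (exons within chr16:56716453-56717961): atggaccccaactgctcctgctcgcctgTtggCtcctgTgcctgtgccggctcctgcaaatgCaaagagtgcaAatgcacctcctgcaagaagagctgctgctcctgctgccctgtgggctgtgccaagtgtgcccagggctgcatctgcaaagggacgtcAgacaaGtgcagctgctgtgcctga
MT1XP1 (chr1:16567708-16567893): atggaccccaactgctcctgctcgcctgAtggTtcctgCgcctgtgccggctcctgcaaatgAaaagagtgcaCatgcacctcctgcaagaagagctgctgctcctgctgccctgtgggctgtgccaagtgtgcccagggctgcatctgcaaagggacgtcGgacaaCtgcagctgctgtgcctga

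MT2P1 differed from MT2A at 5 of 186 bases (97.3% identity) and had no stop codon before the last codon. MT1XP1 differed from MT1X at 7 of 186 bases (96.2% identity) and had 1 stop codon before the last.

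Alignment of the member transcripts to the genome gave 8 such copies outside chromosome 16, and 6 of them lay at a row of the table. Besides MT1HL1 and RNF19B, these rows had no symbol, and there were 5 of them. The row at MT2P1 (chromosome 4, 69241999 to 69242246, 248 bases) had 46918 FPKM in siNT and 10998 FPKM in siPAX9. These values were above those of MT2A itself in each group, 2.86 times as high in siNT and 2.82 times as high in siPAX9. The row is shorter than the 401-base MT2A transcript, and FPKM is relative to length, so these ratios do not measure amounts of RNA. The log2 change of the row was -2.09, compared with -2.07 for MT2A.

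The row at the pseudogene MT1P3 (chromosome 20, 33805785 to 33806041, 257 bases), whose closest expressed member was MT1E (91.6% identity over 332 bases), had 3634 FPKM in siNT and 507 FPKM in siPAX9. Its log2 change was -2.84, compared with -2.78 for MT1E, and its FPKM was 1.08 times that of MT1E in siNT and 1.04 times in siPAX9. The row at MT1XP1 (chromosome 1, 16567403 to 16568220) had 522 FPKM in siNT and 123 FPKM in siPAX9, with a log2 change of -2.09 compared with -2.07 for MT1X. Thus in these 3 pairs the copy and the member differed by at most 0.06 on the log2 scale. By alignment score over all 8 members, MT1P3 was closest to MT1M (90.7% identity over 399 bases), which was listed at 0 in both groups.

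The remaining copies were less alike. A second row at the end of MT2P1 (chromosome 4, 69242297 to 69242391, 95 bases) had 14999 FPKM in siNT and 9414 FPKM in siPAX9, a log2 change of only -0.67. The row at MT1P1 on chromosome 9 (98175419 to 98175869), which is 83.8% identical to MT1E over 394 bases, had 7.06 FPKM in siNT and 1.85 FPKM in siPAX9 (log2 change -1.93). The copy within RNF19B on chromosome 1 is 92.9% identical to MT1E over 395 bases, but its row spans the whole gene, at 10.3 FPKM in siNT and 12.2 FPKM in siPAX9. Of the 5 rows without a symbol, 4 were at least 2-fold lower. Of all rows without a symbol above the minimum level, 12.0% were at least 2-fold lower. It was not tested how many reads at a copy came from transcripts of a member. The level of each member is uncertain to that extent.

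**Figure D4:**
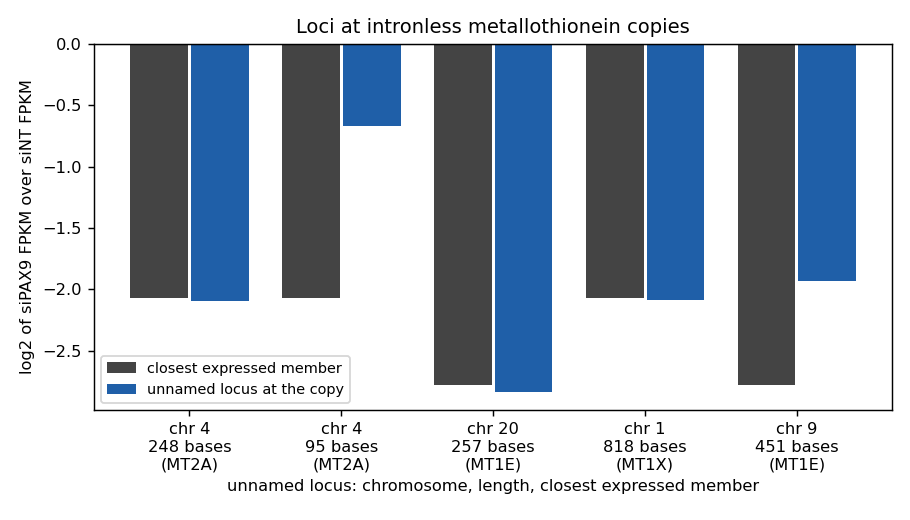
Log2 of siPAX9 FPKM over siNT FPKM (y axis, bars from 0) for 5 unnamed loci at intronless copies (blue) and for the closest expressed member of each (grey), ordered by siNT FPKM. The bars of a pair are nearly equal for the 248-base locus on chromosome 4 and for the loci on chromosomes 20 and 1, and they differ for the other loci.

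Beside the cluster, most genes above the minimum level differed by less than 2-fold. Within 250000 bases of its outer rows values are given for 11 other symbols, and 5 of them were above the minimum level. Of these 5, 1 was at least 2-fold lower and 0 were higher, and their log2 changes ranged from -1.12 to 0.11 with a median of -0.41. The shares over all symbols were 6.89% lower and 7.26% higher, and the median over all symbols was -0.07. NUDT21, a subunit of the cleavage factor that sets polyadenylation sites, was at 45.6 FPKM in siNT and 21.0 FPKM in siPAX9 (log2 change -1.12). On the same side, OGFOD1 (19.4 and 17.1 FPKM) and BBS2 (11.0 and 11.9 FPKM) differed by less than 2-fold. On the other side, NUP93, a nuclear pore subunit, was at 10.2 and 7.68 FPKM, and HERPUD1, a gene of the endoplasmic reticulum stress response, was at 32.3 and 18.1 FPKM. GNAO1 was below 1 FPKM in both groups, at 0.193 in siNT and 0.814 in siPAX9, which was 4.22-fold higher but not called at this level. Within the cluster, the 5 metallothionein rows above the minimum, MT2A, MT1L, MT1E, MT1F and MT1X, were all more than 2-fold lower, while 7 of the 15 were listed at 0 in both groups.

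**Figure D5:**
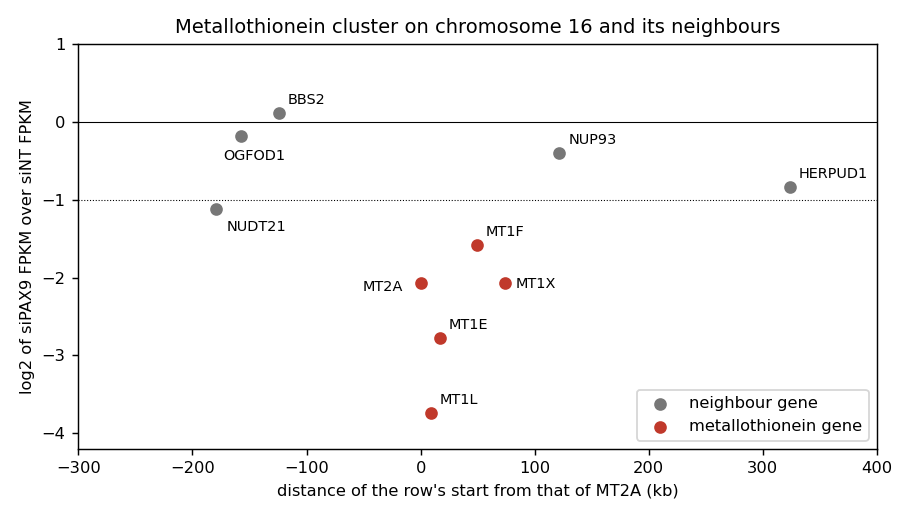
Log2 of siPAX9 FPKM over siNT FPKM (y axis) against the distance of each row's start from that of MT2A in kb (x axis), for metallothionein genes (red) and neighbouring genes (grey) above the minimum level. The 5 metallothionein genes lie between -1.58 and -3.74, below the 5 neighbours shown, and the dotted line marks 2-fold.

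The other genes known to respond to metals or to MTF1 differed in the other direction where they differed by 2-fold. Of 12 such genes with a row, all above the minimum level, 0 were at least 2-fold lower and 3 were at least 2-fold higher, and their median log2 change was 0.54. Over all symbols, 6.89% were lower and 7.26% were higher. SLC30A1, which exports zinc through the plasma membrane, was at 22.2 FPKM in siNT and 62.7 FPKM in siPAX9, 2.83-fold higher. TXNRD1, thioredoxin reductase, was at 16.6 FPKM in siNT and 63.9 FPKM in siPAX9, 3.85-fold higher. HMOX1, the inducible heme oxygenase, was at 0.841 FPKM in siNT and 2.51 FPKM in siPAX9, 2.99-fold higher. TXNRD1 and HMOX1 are also known targets of the oxidant-sensing factor NRF2. NDRG1, with the highest mean of the list, was at 115 FPKM in siNT and 130 FPKM in siPAX9. Of the 12 genes, 10 had a log2 change above 0 and 2 had one below 0. These 2 were SLC39A10, a zinc importer (-0.78), and CSRP1 (-0.02).

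Genes of zinc transport were read against the same shares over all symbols, 6.89% lower and 7.26% higher. Of the 6 SLC30 zinc exporters above the minimum level, SLC30A1 was the only one that differed by 2-fold. The other 5, SLC30A4, SLC30A5, SLC30A6, SLC30A7 and SLC30A9, had log2 changes from -0.69 to 0.68. Of the 11 SLC39 zinc importers above the minimum, 0 differed by 2-fold in either direction, and the median log2 change was -0.08. SLC39A8, the importer with the highest mean, was at 138 FPKM in siNT and 124 FPKM in siPAX9.

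The counts in copper and iron genes were small and near these shares, and nothing is read from them. Among 15 genes of copper handling, 1 was lower and 1 was higher, with a median log2 change of -0.16. These were the metalloreductases STEAP2 (2.95 FPKM in siNT and 0.937 FPKM in siPAX9) and STEAP4 (0.182 FPKM in siNT and 1.42 FPKM in siPAX9). SOD1, the copper- and zinc-containing superoxide dismutase and the gene with the highest mean of the list, was at 117 FPKM in siNT and 89.3 FPKM in siPAX9. Among 11 genes of iron handling above the minimum, FTL and HMOX1 were the ones that differed by 2-fold. FTL, the ferritin light chain, was at 315 FPKM in siNT and 145 FPKM in siPAX9. FTH1, the ferritin heavy chain, was at 2897 FPKM in siNT and 4117 FPKM in siPAX9, a log2 change of 0.51. Ferritin genes have many processed copies in the genome, which were not searched for here.

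The known inducers of metallothioneins other than metals were also examined. Of 13 genes of the glucocorticoid receptor and its response, 1 was at least 2-fold lower, 0 were higher and the median log2 change was -0.11. This count is near the shares over all symbols, 6.89% lower and 7.26% higher, and nothing is read from it. The lower gene was SGK1, a kinase induced by glucocorticoids, at 62.4 FPKM in siNT and 22.6 FPKM in siPAX9. NR3C1, the receptor itself, was at 27.8 FPKM in siNT and 25.0 FPKM in siPAX9, and FKBP5 and TSC22D3, which glucocorticoids also induce, differed by less than 2-fold. CEBPD, with the highest mean of the list, was at 383 FPKM in siNT and 212 FPKM in siPAX9.

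Of 10 genes of the acute phase and the STAT3 pathway, 4 were at least 2-fold lower and 1 was higher, with a median log2 change of -0.54, beside 6.89% lower and 7.26% higher over all symbols. IL6, the cytokine that acts through STAT3, was at 3.61 FPKM in siNT and 0.220 FPKM in siPAX9, 16.4-fold lower. SOCS3, a feedback inhibitor induced by STAT3, was at 21.0 FPKM in siNT and 3.32 FPKM in siPAX9, 6.32-fold lower. OSMR, the receptor of oncostatin M, was at 70.2 FPKM in siNT and 26.2 FPKM in siPAX9. HP, which encodes haptoglobin and has the near copy HPR beside it, was at 33.2 FPKM in siNT and 0.469 FPKM in siPAX9. LCN2, an iron-siderophore binding protein, differed in the other direction, at 3.73 FPKM in siNT and 144 FPKM in siPAX9. CEBPB, with the highest mean, was at 237 FPKM in siNT and 172 FPKM in siPAX9. STAT3 itself was at 91.3 FPKM in siNT and 76.6 FPKM in siPAX9. IL6R (log2 change -0.63), IL6ST (0.30) and LIF (0.71) also differed by less than 2-fold. The part of any of these genes in the levels of the metallothioneins was not tested.

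The target gene and the cell type were checked in the same table. PAX9 was at 2.80 FPKM in siNT and 0.325 FPKM in siPAX9, in a row that overlaps SLC25A21. All 8 basal and epithelial markers were above the minimum, with KRT5 at 1558 and 1807 FPKM and TP63 at 35.4 and 25.3 FPKM in siNT and siPAX9. CDH1 was 2.74-fold higher and EPCAM was 2.05-fold lower in siPAX9. The 6 fibroblast markers summed to 0.559 FPKM in siNT and 4.29 FPKM in siPAX9, with COL1A1 at 0.454 and 4.13 FPKM, while COL3A1 was at 0 in both groups and COL1A2 was at 0 in siNT. The 4 leukocyte markers summed to 3.63 and 4.55 FPKM. Most of that sum was CD68, at 3.38 and 3.77 FPKM. ITGAM (0.234 and 0.691 FPKM) and PTPRC (0.0166 and 0.0922 FPKM) were lower, and CD3E was at 0 in both groups. The 3 endothelial markers summed to 2.58 and 0.516 FPKM, with CDH5 at 0 in siNT. Nearly all of the endothelial sum was PECAM1, which was 5.21-fold lower in siPAX9 (2.58 and 0.495 FPKM). The 4 luminal markers summed to 218 and 127 FPKM, nearly all of it KRT18.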

How the data were processed

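Per the labels and the study's methods, the authors made poly(A)+ libraries, read 76 bases from 1 end, used Bowtie 2 to place them on hg19, and took levels from Cufflinks, in Partek Flow. The authors deposited 1 value per row and group, taken here as FPKM, the unit Cufflinks writes. How libraries were scaled to each other and the strand setting are not given in the sources used here. The methods state total reads per sample as a range, but the table gives no read count behind a value. The deposited fold changes, test statistics, p-values and q-values were not used.

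The table has 41656 rows, 13978 of them without a symbol. A member was matched by exact symbol among comma-separated names, with the row of the highest mean FPKM where there were several. Log2 changes are of siPAX9 over siNT, with nothing added to the FPKM. With 1 value per group no test between samples could be computed from the FPKM, and the authors' own test was left unused. The members and gene lists were chosen with earlier results of these data known. Genes named were all members, all further metallothionein symbols with a row, marker genes that were called or define a type, and, in the other lists, those at least 2-fold different (the 6 largest) and the one with the highest mean FPKM; neighbours at 10 FPKM or more, of which 1 is not reported here, and the 5 symbols nearest to MT2A. NR3C1, FKBP5, TSC22D3, STAT3, IL6R, IL6ST, LIF, SLC39A10, CSRP1, CD68, PTPRC, ITGAM, GNAO1 and the other SLC30 genes were named after their values were seen.

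Deposited starts count from 0, so 1 was added; 94.4% of 22364 single-symbol rows overlapped their gene in the GENCODE annotation on GRCh37, which has the coordinates of hg19. Transcripts were those with 3 exons, the canonical one except for MT1E. Copies were found with blastn 2.17.0 (word size 20, e-value up to 1e-05), and sequences were read with samtools 1.23.1. Promoters are from RefSeq (GRCh38.p14) and were placed on GRCh37 by exact match. Fold calls and the motif search were tested on simulated data. Python 3.11.15, pandas 2.3.3, numpy 2.4.6 and matplotlib 3.10.9 were used.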

Additional observations from a re-analysis of the deposited data

How the results depend on the processing

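Of the members, 4 were lower and 0 higher under each alternative tried (1 or 0.1 added to each FPKM, no minimum FPKM or one of 5, centring, rows with status OK or a single symbol, and a fold of 1.5), and at a fold of 4, 3 were lower and 0 higher. MT1E, MT1F, MT1X, MT2A and MTF1 kept their direction and their side of 2-fold with 1 or 0.1 added, centring or all rows of a symbol summed. The summed metallothionein level, 0.224 of control, ranged from 0.183 to 0.238 on leaving out 1 member at a time. The shares over all symbols moved more. They were 4.54% lower and 4.48% higher with 1 added, 16.8% lower and 14.3% higher at 1.5-fold, and 1.37% lower and 2.67% higher at 4-fold. With no minimum FPKM, 13.7% were higher. On the forward strand alone, 17.0% of promoters held a metal response element core. With windows of 50 bases, 89.1% were found exactly in 1 family gene only. No paired analysis was possible because the table holds 1 value per group, and no sample could be left out for the same reason. The missing error between samples limits every comparison, and the intronless copies limit the levels.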
